A study of Arabidopsis thaliana with 9 samples.

Results

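Among the 22746 probe sets of the array that were not manufacturer controls, 292 (1.28%) gave a higher signal in AtSPP-overexpressed seedlings and in AtSPP knockdown seedlings alike than in Col-0 seedlings, the parental accession without a transgene. AtSPP is the signal peptide peptidase of Arabidopsis thaliana. A probe set, the group of short probes by which the array measures 1 transcript, was included when all 6 transgenic arrays lay above all 3 Col-0 arrays and the means of both transgenic kinds exceeded the Col-0 mean by at least 0.3 milli-units. A milli-unit is 0.001 of the unit of the deposited values, which are on a log scale. 302 probe sets met these measured conditions, and 10 of them were left out because they stand for genes that the selection excluded by name. Of the 292, 133 were paired with 1 gene in the platform annotation used here (131 distinct genes), 1 was paired with several genes, and 158 had no gene listed there and are given only as counts or by probe set number.

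The members with the widest differences had no gene listed. Of the members with 1 gene, ranked by the smaller of their 2 differences from Col-0, AT2G15960 came first. The 30 highest also included the genes of the protein kinase AT3G59350, the glycine-rich protein AT2G05540, the phosphatase-like hydrolase AT2G32150 and EXO, a secreted protein of brassinosteroid-promoted growth. The separation from Col-0 was the condition of selection and is therefore described without a test. The selection put no direct condition on the order of the 2 transgenic kinds. It drew on the same 6 arrays, however, and kept both kinds above Col-0, so this order is not independent of it. In 268 of the 292 the mean was higher in the knockdown lines, and 92 passed the test in that direction while 0 passed in the other, where 4.33% of all probe sets passed in either direction (2.07% higher and 2.26% lower in the knockdown lines).

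Signal peptide peptidase is an aspartic protease that lies within the membrane of the endoplasmic reticulum and cuts transmembrane segments, among them the remnants of signal peptides. It has its catalytic aspartates in transmembrane segments and shares this arrangement with the presenilins. A whole Arabidopsis seedling holds cotyledons, hypocotyl, first leaves and root in one extract.

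Each of the 9 arrays held RNA of 20 whole plants pooled after 7 days on half-strength MS medium with 0.8% agar. The seedlings of the 3 arrays of AtSPP-overexpressed lines (labelled over expressed) carried full-length AtSPP behind the CaMV 35S promoter, which is active in most plant tissues. The labels name a different binary vector for each replicate (pZH2B, pZH3B and pZH4B), whereas the paper names pZH2B alone. Which of these holds could not be settled here. Those of the 3 arrays of knockdown lines (labelled knock down) carried an AtSPP fragment in the vector pBI-sense, anti sense-GW, which was 600 bp long with 1 catalytic aspartate in replicate 1, and 400 bp long with both aspartates in replicates 2 and 3. The seedlings of the 3 Col-0 arrays carried no insert, and no line with an empty vector was among the samples used here, so the presence of any transgene cannot be told apart from the 2 AtSPP constructs. The labels speak of 3 lines of each transgenic kind but do not say which line each replicate was, and nothing states that the 3 Col-0 samples were grown as separate cultures, so p-values reflect no more than how far these samples spread, and that spread may be technical. In whole seedlings, fewer cells of a type and less RNA per cell cannot be told apart.

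AtSPP itself was measured at 8.19, 8.23 and 8.16 on the deposited log scale in the overexpressed lines, 7.92, 7.94 and 7.92 in the knockdown lines, and 7.96, 7.98 and 7.98 in Col-0. Its groups did not overlap and followed the labels, with a knockdown minus overexpressed difference of -265 milli-units (limma, SE 17.0, adjusted p = 0.00183). AtSPP was no member, since it was lower in the knockdown lines than in Col-0. Array medians differed by at most 0.572 milli-units, and no 2 arrays shared more than 7 identical values. Most probe sets lay very close together on the 9 arrays after normalization, with a median residual SD of 0.00471 milli-units over all probe sets, and a difference in these units is not given as a fold change. Among the members the median residual SD was 0.348 milli-units, and 290 of the 292 (99.3%) belonged to the tenth of probe sets with the widest residual SD. Their Col-0 level ran from 5.57 to 10.43 with a median of 7.37, against a median of 6.30 over all probe sets, and 274 members lay above that median. Of the 1218 probe sets (5.35%) with all 6 transgenic arrays above Col-0, 916 fell under 0.3 milli-units in at least 1 kind. A total of 1057 probe sets (4.65%) had all 6 transgenic arrays below Col-0.

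The size of the difference varied over 3 orders of magnitude among members. In the overexpressed lines it ran from 0.301 to 385 milli-units, with a median of 1.08 and quartiles of 0.540 and 3.38. In the knockdown lines it ran from 0.3002 to 819 milli-units, with a median of 2.11 and quartiles of 0.931 and 5.70. Both differences reached 1 milli-unit in 153 members, 10 milli-units in 31 and 100 milli-units in 3. Over all probe sets the median differences were 0.000129 milli-units for the overexpressed lines and -0.000311 milli-units for the knockdown lines. Just inside the limit lay AT3G13062 (0.373 milli-units in the overexpressed and 0.3002 in the knockdown lines) and AT4G14500 (0.301 and 0.440 milli-units), and just outside it lay AT2G46490 (0.289 and 1.12 milli-units) and AT5G58720 (0.287 and 0.638 milli-units). The 3 members over 100 milli-units in both kinds had no gene listed. The widest of them, probe set 253161_at, lay 299, 461 and 396 milli-units from the Col-0 mean in the overexpressed lines, 764, 864 and 828 in the knockdown lines, and -198, 14.1 and 184 in Col-0. Col-0 itself spread over a range almost as wide as the step to the overexpressed lines, and the knockdown lines stood 433 milli-units above the overexpressed lines (SE 96.1, limma adjusted p = 0.0598).

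**Figure D1:**
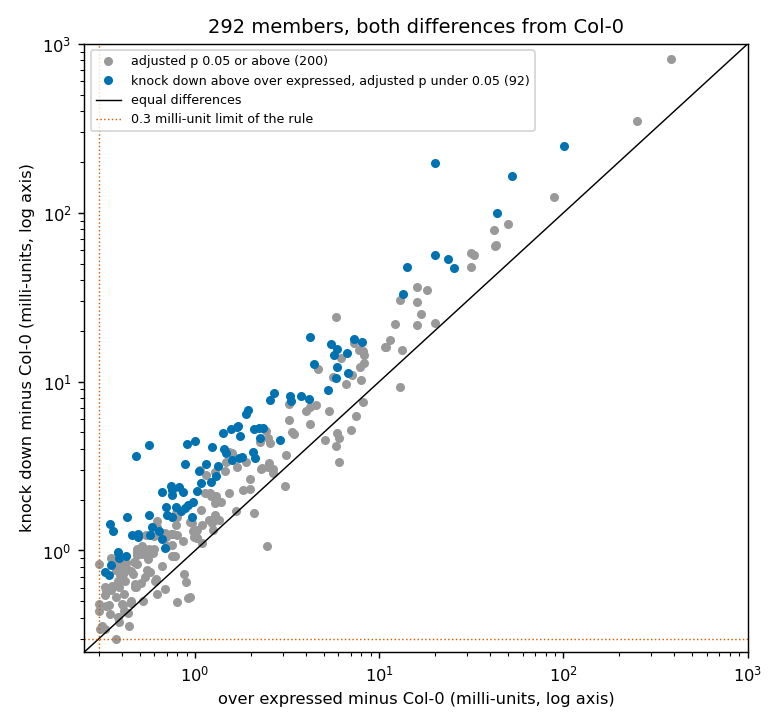
Difference from the Col-0 mean in the overexpressed lines (x axis) and the knockdown lines (y axis) for each of the 292 members, both in milli-units on log axes. Each point is 1 probe set, the solid line marks equal differences, the dotted lines the limit of 0.3 milli-units, and the 92 blue points, all above the solid line, had an adjusted p under 0.05 between the transgenic kinds.

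Knockdown lines were compared with overexpressed lines in 1 limma fit over all 9 arrays, with p-values adjusted over all 22746 probe sets by the Benjamini-Hochberg method. 92 members (31.5%) were higher in the knockdown lines at an adjusted p under 0.05, where 2.07% of all probe sets were. In the other direction 0 members were lower, where 2.26% of all probe sets were. The 2 shares of all probe sets are not a matched base, because they include probe sets with a transgenic kind below Col-0. A member could be lower in the knockdown lines only if the overexpressed lines lay still farther above Col-0. How much of this split follows from the selection was not tested. At an unadjusted p under 0.05, 189 members were higher and 4 lower. The share of all probe sets at this unadjusted limit was not counted, so these 2 counts stand without a comparison. The mean was higher in the knockdown lines in 268 members (91.8%, against 40.7% of all probe sets), and all 3 knockdown arrays lay above all 3 overexpressed arrays in 204 (69.9%, against 10.3%). The reverse order, with all overexpressed arrays above all knockdown arrays, occurred in 6 members (15.1% of all probe sets), and in 82 the 2 kinds overlapped. When only probe sets above the median signal were fitted, 5.13% of them were called higher in the knockdown lines. Of the 275 members in that fit, 110 were called higher and 1 lower. The share of members called as reported was 30.1% among those with 1 gene (40 of 133) and 32.9% among those with none listed (52 of 158). The knockdown difference was a median of 1.80 times the overexpressed difference, with quartiles of 1.34 and 2.27, a lowest ratio of 0.434 and a highest of 9.89.

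The 178 probe sets that met the same conditions in the opposite direction, with all 6 transgenic arrays below Col-0, had the mirrored order. In 166 of them (93.3%) the mean was lower in the knockdown lines, and 37 (20.8%) were called lower there while 0 were called higher. Being farther from Col-0 in the knockdown lines was thus shared by both sets and was not particular to the higher one. Against Col-0, 6.56% of all probe sets were called higher and 6.94% lower in the knockdown lines (limma, adjusted p under 0.05). In the overexpressed lines 0.299% were called higher and 0.246% lower. How far this difference over the whole array goes with the order among the members was not tested.

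The count of 92 depended on single arrays and on scaling. Without 1 array at a time it was 47, 78 and 49 for overexpressed replicates 1 to 3, 46, 50 and 37 for knockdown replicates 1 to 3, and 97, 63 and 81 for Col-0 replicates 1 to 3. It was 44 when the 6 transgenic arrays were fitted alone. Quantile normalization gave 83 members higher and 6 lower in the knockdown lines, where 416 of all 22746 probe sets were called higher and 1963 lower. Centring on array medians gave 136 members higher and 40 lower, where 293 of all probe sets were called higher and 21862 lower. The number of members with the higher mean in the knockdown lines, 268 as reported, also moved with scaling. It was 219 under quantile normalization and 200 after centring on array medians. The matching shares of all probe sets are not given here.

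**Figure D2:**
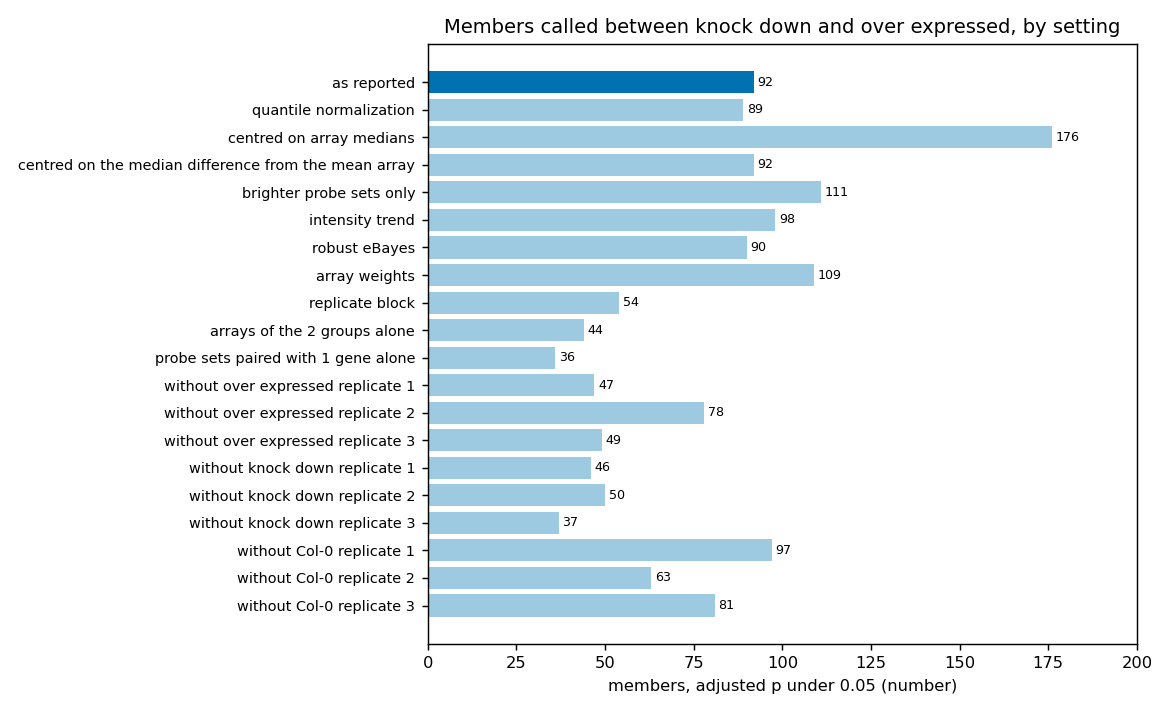
Number of members (x axis) with an adjusted p under 0.05 between knockdown and overexpressed lines, in either direction, as reported (92, dark bar) and under each other setting (light bars). The counts run from 36 of the 133 members with 1 gene, when probe sets with 1 gene were tested alone, to 176 of 292, when arrays were centred on their medians. As reported, 40 of those 133 were called.

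To compare members of unequal size, each array was placed on a scale where 0 is a member's Col-0 mean and 1 the mean of its 6 transgenic arrays. The median position was 0.626, 0.828 and 0.704 for overexpressed replicates 1, 2 and 3, and 1.29, 1.2 and 1.34 for knockdown replicates 1, 2 and 3. The Col-0 replicates stood at -0.169, 0.0494 and 0.133. An overexpressed array was the lowest of the 6 in 271 members, with overexpressed replicate 1 lowest in 142. A knockdown array was the highest in 262, with knockdown replicate 3 highest in 137. Col-0 replicate 1 was the lowest of the Col-0 arrays in 216 members and Col-0 replicate 3 the highest in 182. These orders were not counted over all probe sets, so they describe the members and are not known to be particular to them. The 1 knockdown array with the longer fragment lay between the other two on this scale.

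**Figure D3:**
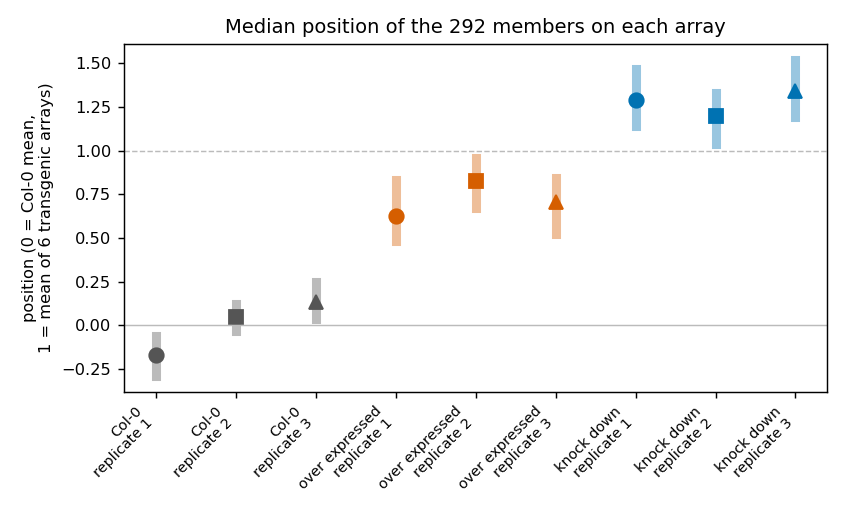
Position of each of the 9 arrays on the scale where 0 is the Col-0 mean and 1 the mean of the 6 transgenic arrays (y axis, no unit). Markers are medians over the 292 members and bars their quartiles, and the overexpressed medians of 0.626 to 0.828 lie between those of Col-0 and of the knockdown lines.

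Of the members with 1 gene, the 30 with the largest smaller difference are given first, grouped by what their proteins are known to do. The groups were formed after the values were seen and carry no test of their own. Counts of called genes within them are a description. They are to be read beside the 31.5% of all members and 2.07% of all probe sets called higher in the knockdown lines. Among probe sets above the median signal, fitted alone, that share was 5.13%. The groups held 59 genes, and 72 of the 133 probe sets with 1 gene were given no role. Values are deviations from the Col-0 mean in milli-units, for replicates 1, 2 and 3.

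Kinases and proteins with receptor domains made up 7 of the genes with a role. AT3G59350, a protein kinase, lay at 19.3, 28.0 and 12.9 in the overexpressed lines, 59.5, 46.9 and 62.6 in the knockdown lines and -9.85, 3.22 and 6.64 in Col-0. The 3 groups did not overlap, and the knockdown mean was 36.3 milli-units above the overexpressed mean (SE 6.40, limma adjusted p = 0.0323). The kinase AT4G01330 differed from Col-0 by 4.22 milli-units in the overexpressed and 5.63 in the knockdown lines (adjusted p = 0.382 between them). THE1, a receptor kinase that monitors the cell wall, lay at 3.27, 3.298 and 2.82 in the overexpressed and 4.78, 2.68 and 3.64 in the knockdown lines. These ranges overlapped, and the transgenic kinds differed by 0.572 milli-units (SE 0.504, limma adjusted p = 0.629). AT1G61100 and AT4G19530 encode proteins with the TIR domain of plant immune receptors. AT1G61100 differed from Col-0 by 7.95 and 10.2 milli-units in the overexpressed and knockdown lines. AT4G19530 was one of the 24 members with the higher mean in the overexpressed lines, at 5.89 milli-units against 4.95, a difference within its spread (adjusted p = 0.727). The kinase AT1G56720 and the leucine-rich repeat protein AT1G15740 differed from Col-0 by 0.553 and 1.90 milli-units in the overexpressed and 0.990 and 3.33 in the knockdown lines. In the whole group 1 of 7 genes was called, the kinase AT3G59350.

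Of 4 transporter genes, AT5G14120, a member of the major facilitator superfamily, had the largest difference in the overexpressed lines. Its arrays stood at 17.6, 22.9 and 19.5 in the overexpressed lines, 23.1, 22.2 and 21.5 in the knockdown lines and -4.47, -0.0843 and 4.55 in Col-0. The 2 transgenic kinds overlapped and differed by 2.24 milli-units (SE 2.39, limma adjusted p = 0.704). AT3G23550, of the MATE efflux family, lay at 2.33, 8.60 and 2.99 in the overexpressed lines, 10.6, 15.1 and 9.88 in the knockdown lines and 0.522, -2.78 and 2.26 in Col-0. Overexpressed replicate 1 lay only just above the highest Col-0 array, and the step between the kinds did not pass the test (adjusted p = 0.153). AT1G22570, of the family of nitrate and peptide transporters, was smaller but more even, at 1.30, 2.01 and 2.33 in the overexpressed and 6.54, 6.28 and 6.60 in the knockdown lines. The kinds were far apart beside their spread, by 4.60 milli-units (SE 0.355, limma adjusted p = 0.00283). AT1G35350, related to the phosphate exporter PHO1, differed from Col-0 by 1.53 and 3.84 milli-units (adjusted p = 0.0556 between the kinds).

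Hydrolases of phosphate esters were the third group. AT2G32150, a hydrolase of the haloacid dehalogenase type, lay at 12.8, 14.0 and 13.7 in the overexpressed lines, 35.2, 32.1 and 32.2 in the knockdown lines and -6.24, 1.35 and 4.88 in Col-0. Each kind was tighter than Col-0, and the knockdown mean was 19.7 milli-units above the overexpressed mean (SE 2.69, limma adjusted p = 0.0152). AT1G25230, a purple acid phosphatase, lay at 5.94, 10.5 and 6.92, 17.0, 14.3 and 14.7 and -2.21, 2.21 and 0.00371 in the same order of groups (adjusted p = 0.0549). AT5G44020, related to acid phosphatases of the haloacid dehalogenase type, differed from Col-0 by 2.33 milli-units in the overexpressed and 5.35 in the knockdown lines (adjusted p = 0.0418 between them). In all 3 the knockdown arrays lay above the overexpressed arrays, and AT2G32150 and AT5G44020 were called.

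**Figure D4:**
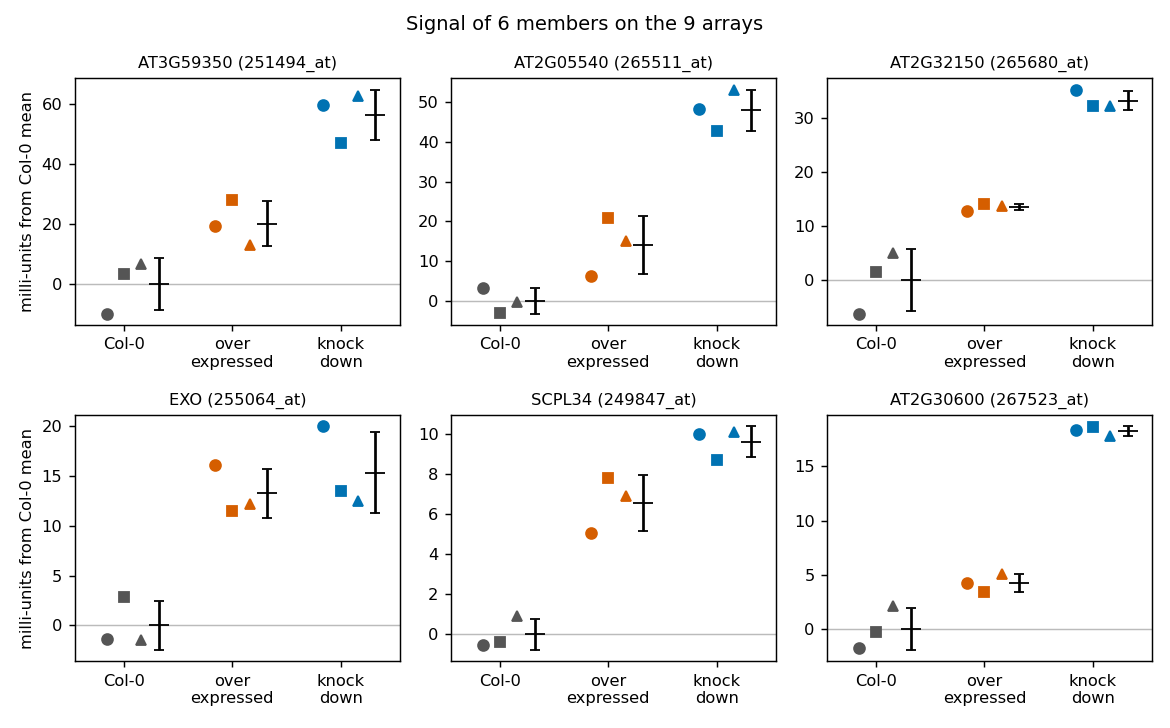
Deviation from the Col-0 mean in milli-units (y axis) of 6 members on the 9 arrays, with replicates 1, 2 and 3 as circles, squares and triangles and, beside each group, its mean and SD (n = 3). The knockdown arrays lie above the overexpressed arrays in 5 panels, and in that of EXO the 2 kinds overlap.

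Protein breakdown was represented by 2 proteases among the 30. AT4G16563, an aspartyl protease, lay at 8.16, 6.23 and 5.61 in the overexpressed lines, 17.4, 13.01 and 14.0 in the knockdown lines and -0.847, 0.3001 and 0.547 in Col-0. The groups did not overlap and the kinds differed by 8.12 milli-units (SE 1.23, limma adjusted p = 0.0206). SCPL34, a serine carboxypeptidase-like protein, lay at 5.07, 7.82 and 6.90 in the overexpressed lines, 10.03, 8.73 and 10.1 in the knockdown lines and -0.547, -0.356 and 0.904 in Col-0. Its arrays kept the same order, with a difference of 3.03 milli-units between the kinds (SE 0.803, limma adjusted p = 0.0967).

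Genes of lipid breakdown included AT1G02660, a lipase of the plastid, and SDP1, the lipase that starts the breakdown of stored seed oil. AT1G02660 lay at 6.21, 6.77 and 3.41 in the overexpressed lines, 17.9, 15.4 and 16.6 in the knockdown lines and -4.64, 1.59 and 3.05 in Col-0. Overexpressed replicate 3 lay close to the highest Col-0 array, whereas all knockdown arrays stood well above, and the kinds differed by 11.2 milli-units (SE 2.09, limma adjusted p = 0.0383). SDP1 lay at 3.52, 4.05 and 2.11 in the overexpressed and 7.08, 4.92 and 5.78 in the knockdown lines, a difference of 2.70 milli-units that did not pass the test (SE 0.810, limma adjusted p = 0.13). Of the 5 genes of this group, the lipase-like AT5G18630 was the other one called, at 1.33 milli-units in the overexpressed and 3.16 in the knockdown lines. AT4G19860, related to lecithin-cholesterol acyltransferases, and the lipase-like AT5G37710 were nearly equal in both kinds, at 0.449 against 0.489 and 0.615 against 0.676 milli-units. AT3G61260, a remorin of the plasma membrane, lay at 2.27, 4.47 and 3.03 in the overexpressed and 8.54, 7.55 and 8.74 in the knockdown lines. It was called with a difference of 5.02 milli-units (SE 0.940, limma adjusted p = 0.0386). The lipid transfer protein AT5G48490 differed from Col-0 by 1.29 and 1.90 milli-units and was not called (adjusted p = 0.273).

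Cell wall and secreted proteins were the group with the most members with a role, 9 genes, of which 4 were called (31.5% of all members and 2.07% of all probe sets). EXO lay at 16.1, 11.5 and 12.2 in the overexpressed lines, 19.97, 13.5 and 12.5 in the knockdown lines and -1.41, 2.87 and -1.47 in Col-0. The transgenic kinds overlapped and differed by 2.06 milli-units (SE 2.42, limma adjusted p = 0.736), and without knockdown replicate 1 the sign turned to -0.271 milli-units. AT2G05540, a glycine-rich protein, lay at 6.33, 20.9 and 15.0 in the overexpressed lines, 48.2, 42.6 and 53.0 in the knockdown lines and 3.34, -3.03 and -0.308 in Col-0. Here the overexpressed arrays spread from near Col-0 upwards while the knockdown arrays stood apart, with 33.9 milli-units between the kinds (SE 4.28, limma adjusted p = 0.0123). EXLA2, an expansin-like protein, lay at 2.69, 2.02 and 2.96 in the overexpressed and 9.29, 6.86 and 7.12 in the knockdown lines (difference 5.20 milli-units, SE 0.668, limma adjusted p = 0.013). AT5G06700, the TRICHOME BIREFRINGENCE protein needed for normal secondary wall cellulose, lay at 0.264, 0.894 and 0.274 in the overexpressed lines, 3.53, 3.05 and 4.26 in the knockdown lines and 0.0555, -0.184 and 0.128 in Col-0. Overexpressed replicates 1 and 3 of this gene barely cleared Col-0, and the kinds differed by 3.14 milli-units (SE 0.328, limma adjusted p = 0.00789). The fourth called gene was AT2G34510, a cell wall protein of the DUF642 family, at 0.563 and 1.63 milli-units. CSLA03, a cellulose synthase-like protein, the peptide hormone precursor RALFL22, the thaumatin-like AT1G75800 and AT2G44500, of the O-fucosyltransferase family, differed from Col-0 by 0.464 to 2.66 milli-units in the overexpressed and 0.853 to 2.87 in the knockdown lines and were not called.

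Transcription factors and chromatin proteins had modest differences, at most 4.55 milli-units in the overexpressed and 7.26 in the knockdown lines. Both were those of AT5G61590, an ethylene response factor that represses wax synthesis, which lay at 5.02, 3.14 and 5.48 in the overexpressed and 7.06, 7.59 and 7.12 in the knockdown lines. The arrays of the 2 kinds did not overlap, and the difference just missed the threshold (2.71 milli-units, SE 0.577, limma adjusted p = 0.0541). bHLH121, a regulator of iron homeostasis, and OBE1, a PHD-finger protein of meristem development, were the called genes among the 8. bHLH121 differed from Col-0 by 2.89 and 4.53 milli-units (adjusted p = 0.0439 between the kinds), and OBE1 by 0.744 and 2.13 milli-units (adjusted p = 0.025). The trihelix factors GT-1 and GT2, BZIP61, the PLATZ protein AT1G32700 and the MYB-like AT1G74840 had the higher mean in the knockdown lines and were not called.

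Smaller groups of traffic, redox and metabolic proteins followed. ATG8F, a ubiquitin-like protein that is attached to autophagosome membranes, lay at 0.604, 0.742 and 0.552 in the overexpressed lines, 1.14, 1.34 and 1.41 in the knockdown lines and -0.0518, -0.0602 and 0.112 in Col-0. Its groups were separate, by 0.663 milli-units between the transgenic kinds (SE 0.0893, limma adjusted p = 0.0144). AT4G29950, with the domain of activators of Rab GTPases, differed from Col-0 by 2.67 and 8.57 milli-units (adjusted p = 0.0237 between the kinds). AT3G62950, a glutaredoxin, lay at 0.594, 0.671 and 0.415 in the overexpressed and 3.90, 3.70 and 5.10 in the knockdown lines (difference 3.67 milli-units, SE 0.389, limma adjusted p = 0.0082). The other glutaredoxin, AT5G18600, differed from Col-0 by 0.691 and 1.196 milli-units and was not called. AT1G12450, of a family of Golgi proteins associated with SNAREs, was nearly equal in both kinds, at 0.431 against 0.429 milli-units. Of the metabolic enzymes, AT2G31810, a regulatory subunit of acetolactate synthase in the synthesis of branched-chain amino acids, lay at 3.78, 10.01 and 4.81 in the overexpressed lines, 13.4, 13.5 and 14.9 in the knockdown lines and -3.97, 0.800 and 3.17 in Col-0. It did not pass the test (difference 7.70 milli-units, SE 2.25, limma adjusted p = 0.123). AT3G47800, related to galactose mutarotases, was the called gene among these enzymes, at 0.974 and 1.93 milli-units (adjusted p = 0.0498). CTP synthase AT1G30820, at 0.981 and 1.198 milli-units, and AT4G37550, of the acetamidase and formamidase family, at 0.403 and 0.807, were not called.

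AT2G30600, with a BTB/POZ domain, was measured by 2 probe sets, both members and both called. The brighter one, 267523_at, lay at 4.21, 3.40 and 5.08 in the overexpressed lines, 18.4, 18.6 and 17.8 in the knockdown lines, and -1.80, -0.294 and 2.09 in Col-0. The difference between the kinds was 14.0 milli-units (SE 0.979) with the lowest adjusted p of any called member with 1 gene (limma, 0.00222), and 2.87 milli-units in the other probe set (SE 0.356, adjusted p = 0.0116). AT4G21870, a small heat shock protein, lay at 4.68, 3.54 and 1.76 in the overexpressed and 8.08, 6.92 and 7.94 in the knockdown lines and was called (difference 4.32 milli-units, SE 0.738, limma adjusted p = 0.0289). The U-box protein AT1G23030 and the DnaJ-type AT5G16650 were nearly equal in both kinds, at 1.25 against 1.33 and 1.09 against 1.11 milli-units. AT1G56220, of the family of dormancy and auxin associated proteins, differed from Col-0 by 3.37 and 5.02 milli-units. It was not called, and under quantile normalization the sign between the kinds turned to -0.372 milli-units. COR27, regulated by cold and the circadian clock, differed from Col-0 by 1.15 and 2.78 milli-units (adjusted p = 0.131 between the kinds). AT5G24490, related to a plastid ribosomal protein, differed by 1.59 and 3.76 milli-units and fell just short of a call (adjusted p = 0.0517). AT5G32450, with an RNA-binding domain, was called at 0.490 against 1.24 milli-units (adjusted p = 0.0071).

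The other genes among the 30 were given no role here. AT2G15960 had the largest smaller difference of the members with 1 gene. It lay at 21.4, 28.7 and 25.9 in the overexpressed lines, 42.3, 47.4 and 52.5 in the knockdown lines and -4.83, -2.99 and 7.81 in Col-0. Its 3 groups were separate, with 22.1 milli-units between the transgenic kinds (SE 4.18, limma adjusted p = 0.0398). AT2G25200 lay at 17.5, 20.1 and 17.3 in the overexpressed and 39.3, 30.5 and 34.4 in the knockdown lines and missed the threshold with a difference of 16.5 milli-units (SE 3.69, limma adjusted p = 0.0613). AT1G54740, AT1G22890, AT1G19530 and AT3G15630 also had the higher mean in the knockdown lines, by 8.50, 13.5, 18.2 and 6.04 milli-units, and were not called. AT1G19530 was uneven among knockdown arrays, at 12.7, 25.4 and 33.8 milli-units. AT2G30930 differed from Col-0 by 4.17 and 7.91 milli-units and was called (adjusted p = 0.0271). Of the 30, 25 had the higher mean in the knockdown lines (91.8% of all members and 40.7% of all probe sets) and 10 were called, all in that direction (31.5% and 2.07%).

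**Figure D5:**
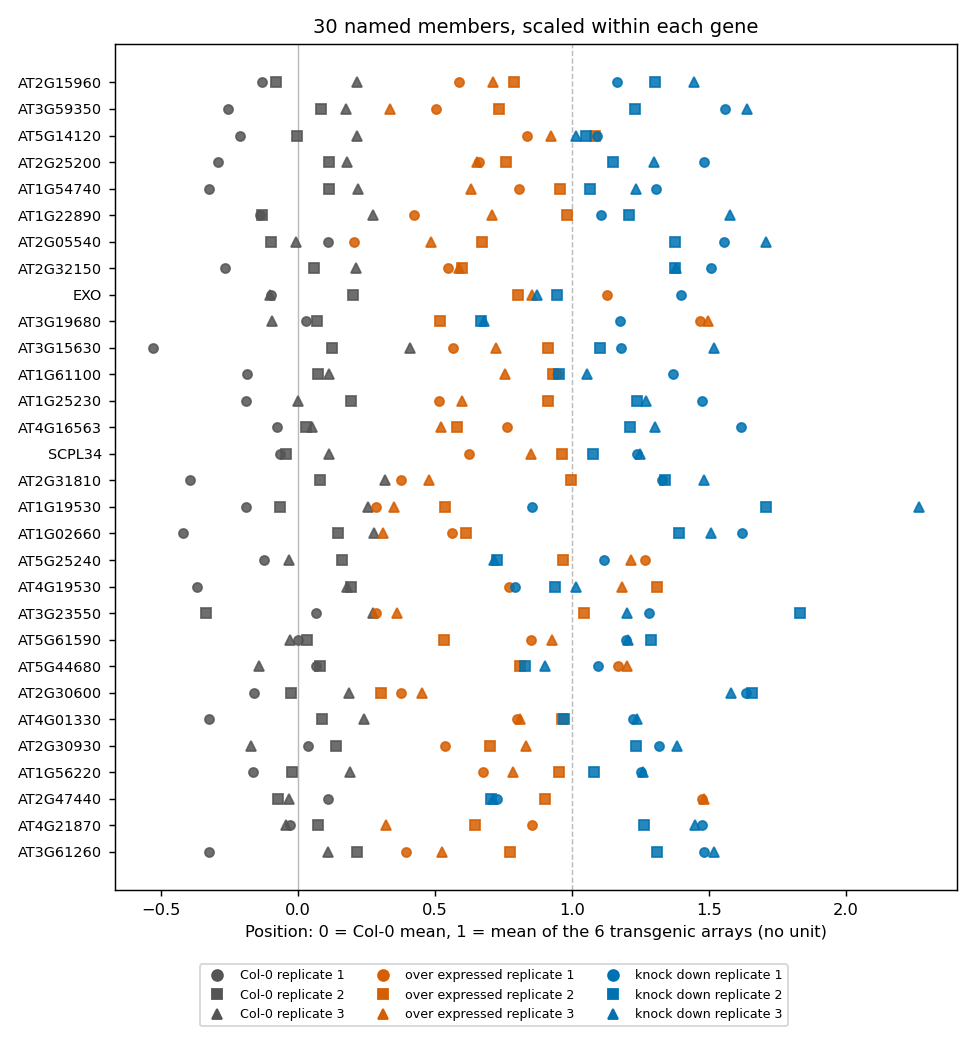
The 9 arrays of the 30 named members on the scale where 0 is the Col-0 mean and 1 the mean of the 6 transgenic arrays (x axis, no unit), 1 member per line and 1 symbol per array. In 25 members the knockdown mean lies to the right of the overexpressed mean, and in AT3G19680, AT5G25240, AT4G19530, AT5G44680 and AT2G47440 it lies to the left.

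A higher mean in the overexpressed lines was seen in 24 members, 11 of them with 1 gene, and none of the 24 was called. AT3G19680 lay at 16.3, 5.73 and 16.6 in the overexpressed lines, 13.04, 7.39 and 7.51 in the knockdown lines and 0.314, 0.743 and -1.06 in Col-0. Overexpressed replicate 2 was the lowest of its 6 transgenic arrays, and the kinds differed by -3.57 milli-units (SE 3.17, limma adjusted p = 0.633). AT2G47440 lay at 6.94, 4.24 and 6.97 in the overexpressed and 3.42, 3.32 and 3.35 in the knockdown lines. It was one of the 6 members whose overexpressed arrays all lay above the knockdown arrays, yet it did not pass the test (difference -2.68 milli-units, SE 0.734, limma adjusted p = 0.105). AT5G25240 had 7.02 against 5.20 milli-units and the DNA glycosylase AT5G44680 had 5.10 against 4.53, with overlapping arrays in both genes. AT1G49500, AT1G10020, AT3G62550, AT1G12450, AT2G42030 and AT3G13062 completed the 11, with differences between the kinds from -0.691 to -0.00223 milli-units.

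Calls held unevenly across settings. Of the 40 called probe sets with 1 gene, 16 were called in the same direction whichever single array was left out, and 10 under every alternative in which they were tested. The 10 were those of AT1G01240, AT1G22570, AT2G30600 (both probe sets), AT2G42040, AT3G62950, AT5G01740, AT5G03120, AT5G06700 and AT5G62280, of which AT3G62950 and AT5G62280 were too dim to enter the fit of brighter probe sets. The largest differences between the kinds among the 40, those of AT3G59350, AT2G05540, AT2G15960 and AT2G32150, were not among them.

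Second probe sets and neighbouring genes were also examined. Of the 4 member genes with more than 1 probe set, AT2G30600 and AT1G22330, the latter with an RNA-binding domain, had both probe sets among the members. The second probe set of AT2G37480 came to 0.149 milli-units in the overexpressed and 0.322 in the knockdown lines, under the limit in the former. That of AT2G31010 came to -0.000163 and 0.000796 milli-units, so the 2 probe sets of this gene differed. AT1G27290 and AT1G27300, and AT2G42030 and AT2G42040, were pairs of neighbouring genes that were both members, which made 4 of the 80 member genes with a measured neighbour, or 5%, against 1.23% of 8384 measured genes with a member as neighbour. Only 2 members had a probe set name that ends in _s_at, the mark of probes shared by several transcripts, and 0 ended in _x_at.

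The 223 genes of 15 pathway and tissue lists gave little to set beside the members, because 26 of them had a probe set paired with 1 gene and 0 of those 26 were members. In the overexpressed lines 1 list gene was called against Col-0, the clock gene GI, lower at -6.00 milli-units (limma adjusted p = 0.0134), where 0.246% of all probe sets were called lower and 0.299% higher. In the knockdown lines the cold-induced dehydrin COR47 (0.372 milli-units, adjusted p = 0.0339), the auxin-conjugating enzyme GH3.3 (0.322 milli-units, adjusted p = 0.00242) and the ethylene regulator EIN3 (0.263 milli-units, adjusted p = 0.00417) rose against Col-0, where 6.56% of all probe sets did. RR16, a response regulator of cytokinin signalling, was lower at -0.0499 milli-units (adjusted p = 0.0444), where 6.94% of all probe sets were. The call of GI was lost without Col-0 replicate 1 or 2, and the 4 calls in the knockdown lines became 2 without overexpressed replicate 3, knockdown replicate 3 or Col-0 replicate 2. Of the shoot markers, RCA and PORB were measured and neither was called in any comparison, PORB at 0.0466 milli-units in the overexpressed and 2.21 in the knockdown lines (adjusted p = 0.0502 for the latter). Of the root markers, EXPA7, EXPA18 and PYK10 were measured, with differences from Col-0 of -0.0141 to 0.00106 milli-units over both kinds, and none was called. Whether the share of shoot or root tissue moved with the members was not tested beyond these 5 genes.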

How the data were processed

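RNA of 9 pooled samples of whole seedlings, 3 per group, was hybridised to Affymetrix ATH1 arrays by the authors, who normalized the signals with the DFW algorithm in R. The deposited values are on a log scale of unstated base and were taken as log2 values. Precision is limited by the 3 arrays per group. The 64 control probe sets were left out of 22810. Platform annotation paired 13513 probe sets with 1 gene, 503 with several, and 8730 stayed unnamed here. Gene symbols and neighbours came from a RefSeq table of the TAIR10.1 assembly (13436 matched).

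Groups followed the sample titles. No further normalization was applied. Knockdown and overexpressed lines were compared in R 4.3.3 with the package limma 3.58.1 (a linear model over 9 arrays with moderated variances, two-sided, Benjamini-Hochberg over 22746 probe sets, threshold 0.05). The procedure was also run on simulated data with independent noise in each value. That run held no shift shared by a whole array, so it does not bear on the dependence on scaling. Differences of members from Col-0 were not tested, because they chose the members. The members and the gene lists were chosen with earlier results of these data known. Named genes are AtSPP, the 30 members with 1 gene and the largest smaller difference, every member with 1 gene called between the transgenic kinds, the 2 probe sets nearest on each side of the limit, and list genes that passed. Other genes were named after their values were seen, where a role group, a second probe set, a pair of neighbours or the higher mean in the overexpressed lines is described, and the measured shoot and root markers are named although none passed. Alternatives covered scaling, dim probe sets, the variance model, the replicate block, the arrays fitted and each array left out.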

Additional observations from a re-analysis of the deposited data

Results flagged for a closer look

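The 40 probe sets with 1 gene listed here had a knockdown difference from Col-0 that exceeded the overexpressed difference by limma's test of the difference itself, with adjusted p from 0.00222 to 0.0498 and 2.07% of all probe sets called in this direction. Each value is the knockdown mean minus the overexpressed mean in milli-units, and for each gene the mean was higher in the knockdown lines. The largest were AT3G59350 at 36.3, AT2G05540 at 33.9, AT2G15960 at 22.1, AT2G32150 at 19.7, AT2G30600 at 14.0 and AT1G02660 at 11.2. Between 3 and 10 milli-units lay AT4G16563 at 8.12, AT4G29950 at 5.90, EXLA2 at 5.20, AT3G61260 at 5.02, AT3G05900 at 4.81, AT1G22570 at 4.60, AT4G21870 at 4.32, AT2G30930 at 3.74, AT5G40450 at 3.74, AT3G62950 at 3.67, AT5G62280 at 3.44, AT5G06700 at 3.14 and AT5G44020 at 3.02.

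Between 1 and 3 milli-units lay AT1G32460 at 2.996, the other probe set of AT2G30600 at 2.87, AT1G52200 at 2.098, AT5G18630 at 1.84, AT2G42040 at 1.68, bHLH121 at 1.64, AT5G56100 at 1.46, AT1G01240 at 1.42, OBE1 at 1.38, AT5G03120 at 1.35, AT5G26740 at 1.34, AT1G53400 at 1.16, AT2G34510 at 1.07 and AT5G01740 at 1.03. Below 1 milli-unit lay AT3G47800 at 0.956, AT3G50560 at 0.895, AT2G31010 at 0.777, AT5G32450 at 0.755, ATG8F at 0.663, AT3G23080 at 0.608 and TET10, a tetraspanin, at 0.371. What sets the size of these differences was not tested.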

How the results depend on the processing

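The 986 probe sets called between knockdown and overexpressed lines became 2379 under quantile normalization and 22155 when arrays were centred on their medians. They became 428 with the 6 arrays fitted alone, and 343 to 923 without 1 array at a time (415 and 517 without overexpressed replicates 1 and 3, and 389, 420 and 343 without knockdown replicates 1, 2 and 3). With 1-gene probe sets alone, 375 of the 13513 tested were called. Centring shifted the median difference over all probe sets to -0.394 milli-units, beyond the differences of many members. Of these calls, 416 were higher and 1963 lower in the knockdown lines under quantile normalization, 293 and 21862 after median centring, against 471 and 515 as reported. The 92 members called became 176 after median centring, 44 with the 6 arrays alone, and 37 to 97 without 1 array at a time. With 1-gene probe sets alone, 36 of the 133 members tested were called, where 40 of these were called as reported. Under the other alternatives except the replicate block the members called numbered 89 to 111. These include a centring of each array on its median deviation from the average array that was chosen after seeing the data. The number of members, 292, became 183 after median centring and 280 to 367 without 1 array at a time. Taking 1-gene probe sets alone kept the 133 members with 1 gene. Quantile normalization left 231 members, of which 161 were among the 292.

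List genes called in the overexpressed lines went from 1 to 2 under quantile normalization, to 0 with the 2 groups alone, and 0 to 1 without 1 array. Those in the knockdown lines went from 4 to 21 after median centring and 2 to 4 without 1 array. Differences between the kinds turned to -0.372 milli-units in AT1G56220, -0.421 in AT5G26740, -0.0819 in AT3G23080 and -0.0270 in TET10 under quantile normalization, to -0.0221 in TET10 after median centring, and to -0.271 in EXO without knockdown replicate 1 (its range without 1 array at a time ran up to 3.49). The cause was not tested. Of all comparisons of named probe sets with their reported value, 923 kept direction and side of the threshold, 180 lost the threshold, 26 gained it and 6 turned.

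No pairing by replicate number was seen. Deviations of same-numbered arrays correlated between -0.138 and 0.208, and 0 arrays correlated best with their own number in both other groups. With 3 arrays per group these correlations cannot exclude that same-numbered samples were handled together. With the replicate block, 590 probe sets, 54 members and 0 list genes in the overexpressed lines were called.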
